A study of Mus musculus with 8 samples.

Results

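The genes described here are 10 transcripts that encode brakes on Jak-Stat signalling: the suppressors of cytokine signalling Socs1, Socs2, Socs3, Socs4, Socs5 and Socs6, their relative Cish, the tyrosine phosphatases Ptpn2 and Ptpn11, and the protein inhibitor of activated Stat Pias1. They were chosen by symbol from the 23304 gene symbols counted in each library. All 10 passed the low-count filter, which kept 12807 genes, and each held at least 62 reads in every library. The counts come from RNA sequencing of NIH3T3, an immortalised mouse fibroblast line labelled as Swiss albino, grown with donor bovine serum. The 8 libraries carry 4 labels with 2 replicates each: Zmynd11 knockout (KO) cells treated for 2 h with recombinant murine interferon-β (IFN-β), 100 units/ml, untreated KO cells (0 h), unedited cells (WT) 2 h after the same dose, and untreated WT cells (0 h). The knockout was made with CRISPR, and neither a clone nor the edited position is given in the sources used here. The extraction protocol speaks of embryonic fibroblasts where the source field names NIH3T3. Nothing in the labels says that replicates were separate cultures. A p-value here therefore weighs a difference between groups only against the spread of these libraries, and that spread may be technical.

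Cytokine receptors without kinase activity of their own signal through Jak kinases, which phosphorylate the receptor and then Stat factors. Stat factors enter the nucleus and switch on target genes, and some Socs genes are among those targets, so that the pathway feeds back on itself. SOCS proteins bind phosphotyrosine through an SH2 domain and recruit an elongin-cullin ubiquitin ligase through their SOCS box, phosphatases remove the phosphate, and PIAS proteins act on Stat factors in the nucleus. In type I interferon signalling the main receptor is Ifnar1 with Ifnar2, the kinases are Jak1 and Tyk2, and Stat2 and Irf9 belong to the transcription factor complex that is activated.

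Levels are given in CPM, a gene's reads scaled to a common library size, where 1 read was worth 0.0460 to 0.0700 CPM in libraries of 13671013 to 21299120 gene reads. The targeted gene goes against the labels of 2 groups. Zmynd11 had 72 and 67 reads in the libraries labelled KO 2 h, 2491 and 1967 in KO 0 h, 59 and 65 in WT 2 h, and 2511 and 2450 in WT 0 h. Its level therefore separated the libraries by the label of time, while the interferon-induced gene Ifit1 separated them by the label of genotype (388 ± 11.6 CPM in KO 2 h, 213 ± 23.3 in KO 0 h, 2.84 ± 1.57 in WT 2 h and 1.30 ± 0.109 in WT 0 h, mean ± SD, n = 2 each). Groups keep their labels below, and higher or lower is always meant between labels. Since low Zmynd11 and the label 2 h coincide in all 8 libraries, these cannot be told apart. If the libraries of WT 2 h and KO 0 h carried each other's labels, Zmynd11 would be low in the libraries labelled KO and Ifit1 high in those labelled 2 h; whether they do was not tested. In that case KO 2 h over WT 0 h and the interaction would keep their values and names. KO 0 h over WT 2 h would keep its pair of conditions, with every sign reversed. Every other comparison below would be between other conditions than its name says. The 12 fibroblast markers had reads in every group. Their summed level was 20200 to 21700 CPM in KO 2 h and 45500 to 47000 in KO 0 h. In WT 2 h it was 19800 to 21000 CPM and in WT 0 h 50200 to 50600. By the edgeR test described below, 9 of the 12 were lower and 1, Thy1, higher in KO 2 h than in KO 0 h. For WT 2 h against WT 0 h, 10 were lower and 1, again Thy1, higher. Fn1 passed in neither. It averaged 11465.9 CPM in KO 2 h, 10876.9 in KO 0 h, 10931.8 in WT 2 h and 12068.6 in WT 0 h. The sum of 5 endothelial markers was 12.2 to 14.7 CPM in KO 2 h, 3.15 to 5.08 in KO 0 h, 12.5 to 13.9 in WT 2 h and 2.41 to 3.22 in WT 0 h. Most of it at 2 h was Vwf, with a mean of 11.1, 0.684, 11.4 and 0.416 CPM in these groups, while Cdh5 averaged 0.997, 1.70, 0.546 and 1.59 CPM. The sum of 9 leukocyte markers, with Cd3e at 0 in each group, was 56.9 to 91.1 CPM in KO 2 h, 53.2 to 78.3 in KO 0 h, 71.3 to 72.6 in WT 2 h and 43.9 to 45.4 in WT 0 h. That of 4 skeletal muscle markers was 14.9 to 15.2, 3.07 to 3.26, 16.7 to 17.6 and 3.52 to 3.69 CPM in the same groups. Myog was at 0 in both 2 h groups. Des made up most of this muscle sum at 2 h, with a mean of 13.53, 1.896, 16.02 and 2.279 CPM in turn. Acta1 averaged 1.368, 1.175, 0.988 and 1.102 CPM in the same order. Reads outside annotated features made up 15.8 to 17.2% of reads in the 4 libraries labelled 2 h and 12.8 to 13.3% in those labelled 0 h, apart from KO 0 h replicate 2 with 17.3%. The part of these differences in the results was not tested. In such bulk libraries fewer cells of a kind and less RNA per cell cannot be told apart. The library labelled KO 0 h replicate 2 stood apart with reads in 17498 genes, against 14847 to 15945 in the other 7.

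Of the 10 genes, 8 passed the test in at least 1 of the 4 comparisons that change a single label. Socs4 and Pias1 passed in none. WT 2 h against WT 0 h alone called 61.2% of all genes. The share of all genes called in at least 1 of the 4 was not computed, so the count of 8 is a description only. Between KO 2 h and KO 0 h, Socs3, Socs6, Cish and Ptpn11 were higher and Socs2 and Socs5 lower. Between WT 2 h and WT 0 h, Socs6, Ptpn2 and Ptpn11 were higher and Socs1 and Socs5 lower. Between KO 2 h and WT 2 h, Socs1 and Socs3 were higher. Between KO 0 h and WT 0 h, Socs1 and Socs2 were higher. These calls rest on edgeR's quasi-likelihood test at a Benjamini-Hochberg adjusted p below 0.05 over all 12807 genes.

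The calls are read against how often any gene was called. The comparison of KO 2 h with KO 0 h called 61.1% of all genes, 30.0% higher and 31.2% lower, so 6 of 10 is close to that background. With library size alone as the scale 9 of the 10 were called, 7 higher and 2 lower. WT 2 h against WT 0 h called 61.2%, 30.1% higher and 31.1% lower, and 5 of the 10 genes were called, or 7 with library size alone. KO 2 h against WT 2 h called 1.60% of all genes and 2 of the 10, and KO 0 h against WT 0 h called 3.92% and 2 of the 10. The interaction, which is the change of 2 h over 0 h among KO labels minus that among WT labels, called 0.133% of all genes and none of the 10. At an unadjusted p below 0.05 it gave Socs1 and Ptpn2. With DESeq2 none of the 10 was called either. The median log2 fold change of the 10 genes was 0.21 for KO 2 h over KO 0 h, against -0.01 over all genes tested, and 0.16 for WT 2 h over WT 0 h, against 0.01. For KO 2 h over WT 2 h it was 0.02 against -0.01, and for KO 0 h over WT 0 h 0.08 against 0.01. With library size alone as the scale, the median of all genes shifted to 0.14 for KO 2 h over KO 0 h and to 0.15 for WT 2 h over WT 0 h. The calls over all genes then split into 4834 higher and 3036 lower for the KO labels (3838 and 3991 with composition scaling) and into 4823 and 3055 for the WT labels (3853 and 3984). For KO 0 h over WT 0 h they split into 275 and 221, against 339 and 163.

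**Figure D1:**
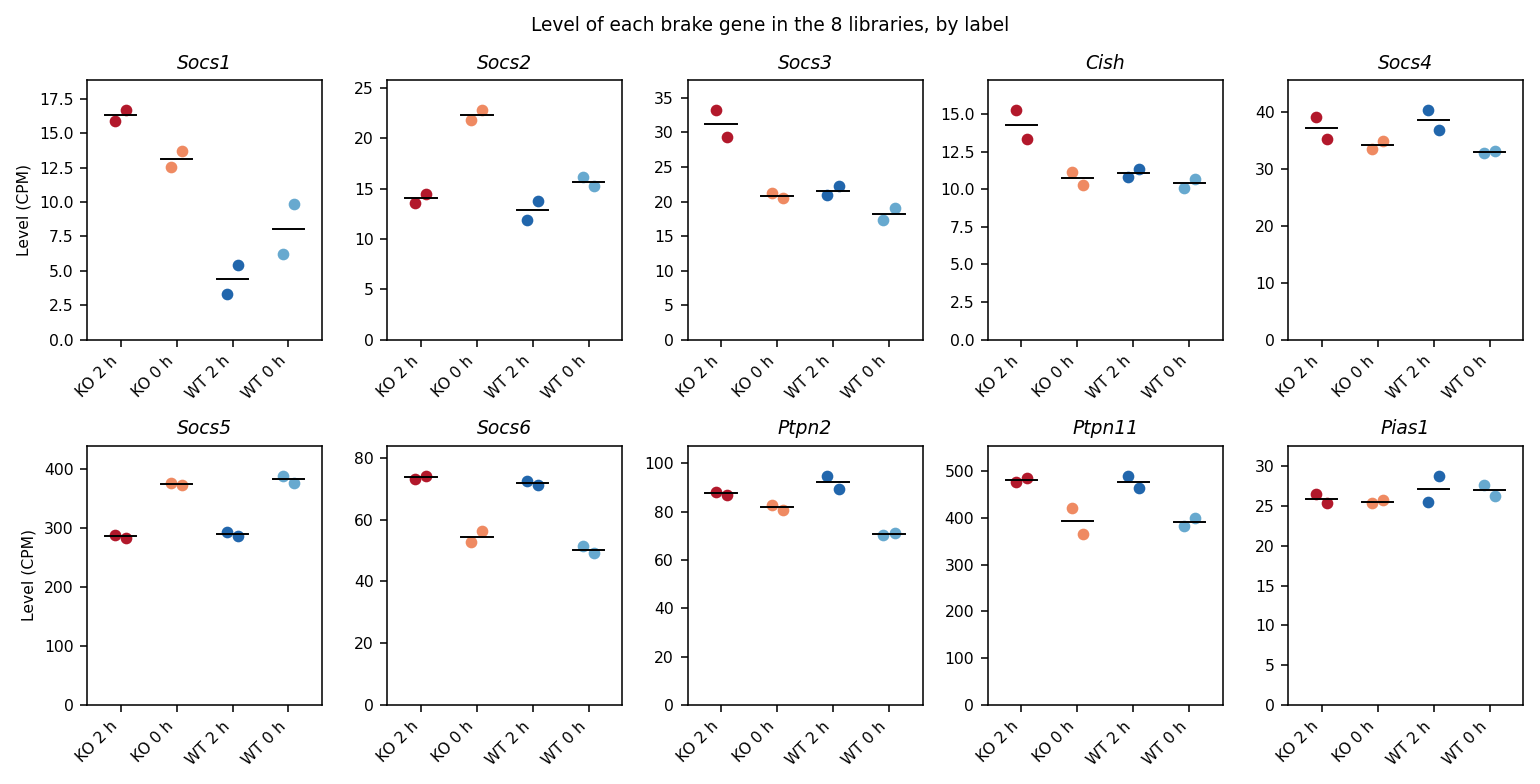
Level of each brake gene in CPM (linear axes from 0, one panel per gene), with a point per library and a bar at the mean of the 2 libraries of each labelled group. Socs1 is higher in the 4 libraries labelled KO (12.5 to 16.7 CPM) than in the 4 labelled WT (3.35 to 9.83 CPM). Socs2, Socs4, Socs5, Socs6, Ptpn2 and Ptpn11 separate by the label of time, Socs4 only narrowly. The share of all genes that separate by either label was not computed, so this is a description only. Between 2 h and 0 h, 61.1% of all genes were called among the KO labels and 61.2% among the WT labels.

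Socs1 encodes the strongest known inhibitor of interferon signalling in the family, which binds Jak kinases and blocks their active site through a kinase inhibitory region. It stood at 15.9 and 16.7 CPM in the libraries labelled KO 2 h, 12.5 and 13.7 in KO 0 h, 3.35 and 5.45 in WT 2 h and 6.20 and 9.83 in WT 0 h (replicates 1 and 2 in turn). All 4 KO-labelled libraries lay above all 4 WT-labelled ones, and no 2 groups overlapped. Socs1 was 3.70-fold higher in KO 2 h than in WT 2 h (1.89 on the log2 scale, SE 0.21, edgeR adjusted p = 1.72e-06), and this call held when each library was left out. At 0 h it was 1.63-fold higher in KO than in WT (0.71, SE 0.20, edgeR adjusted p = 0.0477). That call is at the threshold: it was lost with RLE scaling (edgeR adjusted p = 0.0529), with library size alone (0.0573), in DESeq2 (adjusted p = 0.0687), and without KO 0 h replicate 1 (0.0514), KO 0 h replicate 2 (0.164) or WT 0 h replicate 1, where the log2 fold change of Socs1 was 0.39 (0.505).

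Within the WT labels Socs1 fell by 0.87 on the log2 scale in the 2 h libraries relative to those at 0 h (SE 0.22, edgeR adjusted p = 0.00201). The call was lost without WT 2 h replicate 1 (-0.52, edgeR adjusted p = 0.0994) or WT 0 h replicate 2 (-0.51, edgeR adjusted p = 0.0916), and the counts behind it were 62 and 98 reads in WT 2 h against 127 and 200 in WT 0 h. Within the KO labels Socs1 gave a log2 fold change of 0.31 (95% interval -0.08 to 0.70, edgeR adjusted p = 0.157), and with library size alone it passed (0.46, edgeR adjusted p = 0.042). The interaction was 1.18 (SE 0.29, edgeR adjusted p = 0.127). It passed without the low-count filter (edgeR adjusted p = 0.0018) and without WT 0 h replicate 1 (1.50, edgeR adjusted p = 0.0168).

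The 250 bases before the start of Socs1 are shown because they hold letter matches to an element that type I interferon acts through. They are RefSeq sequence of GRCm38.p6 at chr16:10785537-10785786 on the minus strand, printed 5′ to 3′, and the capitals mark 2 overlapping matches to GAAANNGAAA, the core of the interferon-stimulated response element, which begin 83 and 77 bases before the start. The match for Socs3 is shown beside it for contrast, as a stretch of 29 bases at chr11:117969502-117969530 on the minus strand. Its capitals mark a match to TTCNNNGAA, the sequence that Stat dimers bind, which begins 154 bases before the start that the promoter table gives for Socs3. That start differs from the end of the RefSeq gene, which spans chr11:117966079-117970336, so the stretch lies inside the annotated gene.
Socs1: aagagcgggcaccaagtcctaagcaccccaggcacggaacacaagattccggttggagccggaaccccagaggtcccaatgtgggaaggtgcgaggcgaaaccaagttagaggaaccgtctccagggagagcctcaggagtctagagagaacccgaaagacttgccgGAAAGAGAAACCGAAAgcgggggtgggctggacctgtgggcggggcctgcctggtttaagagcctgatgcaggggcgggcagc
Socs3: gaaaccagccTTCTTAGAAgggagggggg

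Both strands were searched for GAAANNGAAA and for TTCNNNGAA, which reads the same on either strand. The window of Socs1 held no TTCNNNGAA, and that of Socs3 held no GAAANNGAAA. Of 32851 RefSeq promoters, 2.98% held GAAANNGAAA in their 250 bases and 7.02% held TTCNNNGAA. Promoters of 6 of the 10 genes were searched, and those of Socs4, Cish, Ptpn11 and Pias1 held neither motif in this window. The other genes, Socs2, Socs5, Socs6 and Ptpn2, were not searched. Socs6 and Ptpn2 lie on chromosome 18, which the search of the 10 genes left out and the count over all promoters did not. Of 20 interferon-induced genes 15 had a promoter in the table and 9 of these held GAAANNGAAA, among them Ifit1, Isg15 and Stat2. A match describes the letters of the window and is not a measured binding site.

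Socs3 encodes the main inhibitor of cytokines that signal through the receptor chain Il6st, and like Socs1 it has a kinase inhibitory region. It stood at 33.2 and 29.3 CPM in KO 2 h, 21.2 and 20.5 in KO 0 h, 20.9 and 22.2 in WT 2 h and 17.3 and 19.1 in WT 0 h. The pair labelled KO 2 h was the highest, and KO 0 h overlapped WT 2 h. Socs3 was 1.50-fold higher in KO 2 h than in KO 0 h (log2 fold change 0.59, SE 0.12, edgeR adjusted p = 0.000172). It was 1.45-fold higher in KO 2 h than in WT 2 h (0.54, SE 0.12, edgeR adjusted p = 0.00956), a call that was lost without KO 2 h replicate 1 (0.43, edgeR adjusted p = 0.296), WT 2 h replicate 1 (0.48, edgeR adjusted p = 0.274) or WT 2 h replicate 2 (0.58, edgeR adjusted p = 0.0806). WT 2 h over WT 0 h gave 0.24 (95% interval -0.01 to 0.49, edgeR adjusted p = 0.0845). This value passed with library size alone (0.38, edgeR adjusted p = 0.00931) and without KO 2 h replicate 1 (0.28, edgeR adjusted p = 0.0475) or replicate 2 (0.28, edgeR adjusted p = 0.0476). KO 0 h over WT 0 h gave 0.20 (-0.06 to 0.45, edgeR adjusted p = 0.375), and the interaction 0.34 (-0.01 to 0.69, edgeR adjusted p = 0.399).

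Cish and Socs2 are both targets of Stat5, and their proteins dampen growth hormone and related cytokine signals. Cish stood at 15.3 and 13.3 CPM in KO 2 h, 11.1 and 10.3 in KO 0 h, 10.8 and 11.3 in WT 2 h and 10.1 and 10.7 in WT 0 h. As for Socs3, the pair labelled KO 2 h was the highest, and the other 3 groups lay within 10.1 to 11.3 CPM. Cish was 1.34-fold higher in KO 2 h than in KO 0 h (log2 fold change 0.42, SE 0.15, edgeR adjusted p = 0.0172), but not without KO 2 h replicate 1 (0.33, edgeR adjusted p = 0.132) or KO 0 h replicate 2 (0.36, edgeR adjusted p = 0.0857). Its value for KO 2 h over WT 2 h, 0.37 with a 95% interval of 0.07 to 0.67, did not pass over all genes (edgeR adjusted p = 0.561).

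Socs2 followed another order. It stood at 13.6 and 14.5 CPM in KO 2 h, 21.8 and 22.8 in KO 0 h, 11.9 and 13.7 in WT 2 h and 16.1 and 15.2 in WT 0 h. The pair labelled KO 0 h was the highest, and KO 2 h overlapped WT 2 h. All libraries labelled 2 h lay below all those labelled 0 h. Socs2 fell by 0.67 on the log2 scale in KO 2 h relative to KO 0 h (SE 0.13, edgeR adjusted p = 0.000124), a fold of 0.628. At 0 h it was 1.42-fold higher in KO than in WT (0.51, SE 0.13, edgeR adjusted p = 0.0275). This call of Socs2 was lost without KO 0 h replicate 2 (0.47, edgeR adjusted p = 0.119), WT 0 h replicate 1 (0.52, edgeR adjusted p = 0.215) or WT 0 h replicate 2 (0.44, edgeR adjusted p = 0.30). WT 2 h over WT 0 h gave -0.29 (95% interval -0.57 to -0.01, edgeR adjusted p = 0.0635), and the interaction of -0.38 (-0.77 to 0.01) did not pass (edgeR adjusted p = 0.399).

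**Figure D2:**
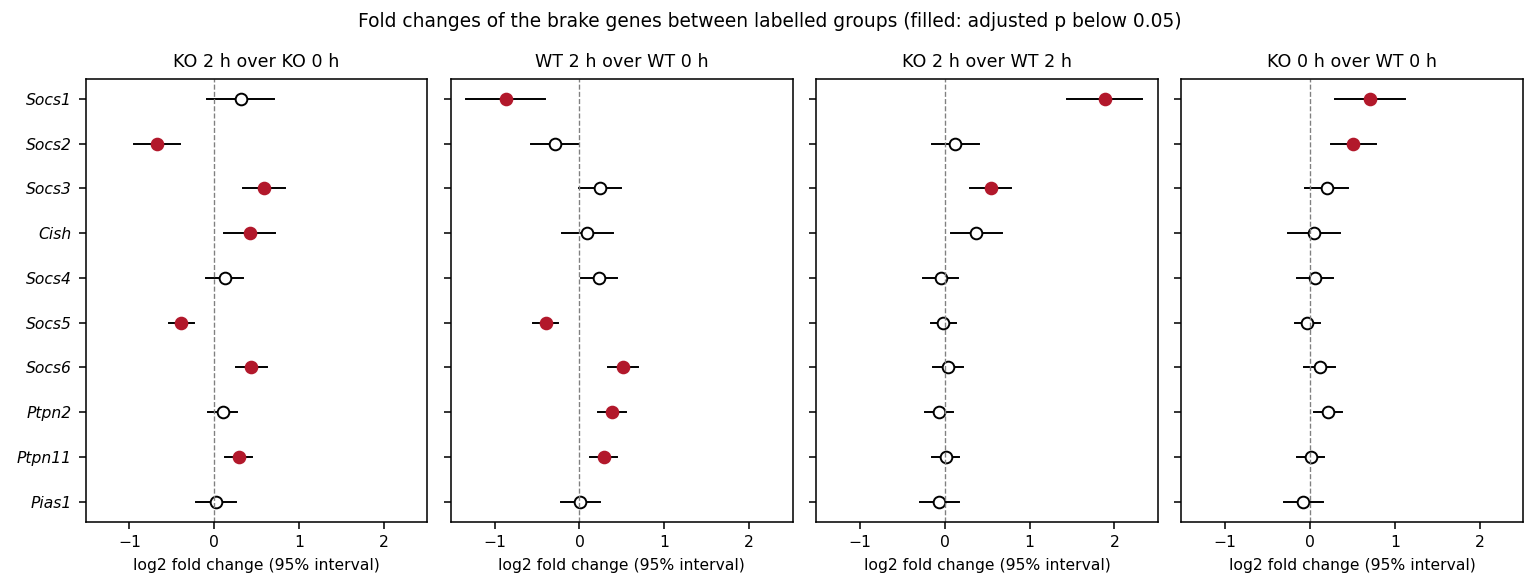
Log2 fold change of each brake gene (rows) in 4 comparisons between labelled groups (panels), with the 95% interval of the edgeR fit as a line and filled points where the adjusted p was below 0.05. Socs1 has the largest fold change of the 10 genes (1.89 for KO 2 h over WT 2 h), and the folds of Socs5, Socs6 and Ptpn11 are alike in both comparisons of 2 h over 0 h.

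Socs4, Socs5 and Socs6 form the branch of the family with long amino-terminal regions, and their known partners include receptor tyrosine kinases and insulin receptor substrates rather than interferon receptors. Socs5 stood at 289 and 283 CPM in KO 2 h, 375 and 372 in KO 0 h, 293 and 286 in WT 2 h and 389 and 375 in WT 0 h. The 4 libraries labelled 2 h lay below the 4 labelled 0 h, and within each time the genotype labels overlapped. Socs5 fell by 0.39 on the log2 scale in KO 2 h relative to KO 0 h (SE 0.07, edgeR adjusted p = 5.71e-05) and by 0.40 in WT 2 h relative to WT 0 h (SE 0.07, edgeR adjusted p = 4e-05). The interaction was 0.01 with a 95% interval of -0.20 to 0.22.

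Socs6 went the other way. It stood at 73.1 and 74.2 CPM in KO 2 h, 52.6 and 56.1 in KO 0 h, 72.4 and 71.3 in WT 2 h and 51.3 and 49.1 in WT 0 h. Again the libraries separated by the label of time, with 2 h the higher. Socs6 was 1.36-fold higher in KO 2 h than in KO 0 h (0.44 on the log2 scale, SE 0.09, edgeR adjusted p = 0.000131) and 1.43-fold higher in WT 2 h than in WT 0 h (0.52, SE 0.09, edgeR adjusted p = 1.73e-05). Between genotype labels it gave 0.04 at 2 h (95% interval -0.14 to 0.21) and 0.11 at 0 h (-0.07 to 0.29). The calls of Socs5 and Socs6 between 2 h and 0 h held in every alternative run.

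Socs4 levels were 39.2 and 35.2 CPM in KO 2 h, 33.6 and 35.0 in KO 0 h, 40.4 and 36.9 in WT 2 h and 32.8 and 33.1 in WT 0 h. The values labelled 2 h lay above those labelled 0 h, by 0.12 on the log2 scale among the KO labels (95% interval -0.09 to 0.34, edgeR adjusted p = 0.312) and by 0.23 among the WT labels (0.02 to 0.44, edgeR adjusted p = 0.0559). With library size alone both values of Socs4 passed (0.27 and 0.37, edgeR adjusted p = 0.0284 and 0.00383). The WT value also passed with RLE scaling (edgeR adjusted p = 0.0475), with a filter of 1 CPM in 2 libraries (0.0448), in a fit of the compared groups alone (0.0257), and without KO 2 h replicate 1 (0.26, edgeR adjusted p = 0.027), KO 2 h replicate 2 (0.26, edgeR adjusted p = 0.0277) or WT 2 h replicate 2 (0.32, edgeR adjusted p = 0.0334).

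Ptpn2 encodes the phosphatase TC-PTP, which removes phosphate from Jak kinases and from Stat factors in the nucleus. It stood at 88.3 and 87.1 CPM in KO 2 h, 83.0 and 80.6 in KO 0 h, 95.0 and 89.3 in WT 2 h and 70.5 and 71.2 in WT 0 h. WT 0 h was the lowest pair, and no 2 groups overlapped. All libraries labelled 2 h lay above all those labelled 0 h. Ptpn2 was 1.30-fold higher in WT 2 h than in WT 0 h (0.38 on the log2 scale, SE 0.08, edgeR adjusted p = 0.000292), and this call held in every alternative run. KO 2 h over KO 0 h gave 0.10 (95% interval -0.07 to 0.27, edgeR adjusted p = 0.292), which passed with library size alone (0.25, edgeR adjusted p = 0.0103). KO 0 h over WT 0 h gave 0.21 (0.04 to 0.38, edgeR adjusted p = 0.145), and the interaction -0.28 (-0.52 to -0.04, edgeR adjusted p = 0.327).

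Ptpn11 encodes Shp2, a phosphatase that limits Stat signalling and also carries growth-factor signals to the Ras pathway. It stood at 475 and 485 CPM in KO 2 h, 422 and 364 in KO 0 h, 490 and 463 in WT 2 h and 382 and 400 in WT 0 h. The libraries labelled 2 h were the higher, and the 2 labelled KO 0 h spread most. Ptpn11 was 1.22-fold higher at 2 h than at 0 h among the KO labels (0.29 on the log2 scale, SE 0.08, edgeR adjusted p = 0.00292) and 1.22-fold among the WT labels (0.28, SE 0.08, edgeR adjusted p = 0.00322). The KO call was lost without KO 0 h replicate 2 (0.19, edgeR adjusted p = 0.0551) and the WT call without WT 0 h replicate 1 (0.24, edgeR adjusted p = 0.0817). Between genotype labels Ptpn11 gave 0.01 at 2 h (95% interval -0.15 to 0.17) and 0.01 at 0 h (-0.16 to 0.17).

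Pias1 encodes a SUMO ligase that acts on Stat factors. Its levels lay between 25.4 and 28.8 CPM in all 8 libraries, at 26.5 and 25.4 in KO 2 h, 25.4 and 25.7 in KO 0 h, 25.5 and 28.8 in WT 2 h and 27.7 and 26.3 in WT 0 h. Its group means differed by 1.06-fold at most, and no comparison passed. The 95% interval of its log2 fold change was -0.21 to 0.26 for KO 2 h over KO 0 h, -0.22 to 0.24 for WT 2 h over WT 0 h, -0.30 to 0.17 for KO 2 h over WT 2 h and -0.31 to 0.15 for KO 0 h over WT 0 h.

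The comparisons that cross both labels complete the order of the groups. KO 2 h against WT 0 h called 62.3% of all genes, 30.8% higher and 31.4% lower, and 7 of the 10 genes, with Socs1, Socs3, Cish, Socs6, Ptpn2 and Ptpn11 higher and Socs5 lower. Socs1 was 2.03-fold higher (1.02 on the log2 scale, SE 0.19, edgeR adjusted p = 9.72e-05) and Socs3 was 1.72-fold higher (0.78, SE 0.12, edgeR adjusted p = 4.58e-06) in KO 2 h than in WT 0 h. Cish gave 0.47 (edgeR adjusted p = 0.00747), a call lost without KO 2 h replicate 1 (0.38, edgeR adjusted p = 0.0793) or WT 0 h replicate 1 (0.42, edgeR adjusted p = 0.0807). That of Ptpn11 was lost without WT 0 h replicate 1 (0.25, edgeR adjusted p = 0.0671).

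KO 0 h against WT 2 h called 60.3% of all genes, 31.5% higher and 28.8% lower, and 5 of the 10 genes. Socs1 (log2 fold change 1.58, SE 0.22, edgeR adjusted p = 1.81e-06), Socs2 (0.80, SE 0.13, edgeR adjusted p = 1.69e-05) and Socs5 (0.37, SE 0.07, edgeR adjusted p = 0.000104) were higher in KO 0 h, and Socs6 and Ptpn11 were lower (-0.40 and -0.28, edgeR adjusted p = 0.000327 and 0.00393). The call of Ptpn11 was lost without KO 0 h replicate 2 (-0.18, edgeR adjusted p = 0.0701). Ptpn2 gave -0.17 (edgeR adjusted p = 0.07). It passed with RLE scaling (-0.19, edgeR adjusted p = 0.0475) and with library size alone (-0.33, edgeR adjusted p = 0.00108). It also passed without KO 2 h replicate 1 (-0.21), KO 2 h replicate 2 (-0.21) or WT 2 h replicate 2 (-0.25). With library size alone the calls over all genes split into 4795 higher and 3188 lower for KO 2 h over WT 0 h (3949 and 4026 with composition scaling) and into 3020 and 4850 for KO 0 h over WT 2 h (4034 and 3689).

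From high to low, Socs1 thus ran KO 2 h, KO 0 h, WT 0 h and WT 2 h, and only the first step of that order did not pass. Socs3 and Cish shared the order KO 2 h, WT 2 h, KO 0 h and WT 0 h. For Socs3 only the first of the steps between neighbours passed, and for Cish none did. Socs2 ran KO 0 h, WT 0 h, KO 2 h and WT 2 h, with the first step alone past the test. Socs5, Socs6 and Ptpn11 each had a single step past the test, between WT 2 h and KO 0 h, which divides the labels of time. For Ptpn2, Socs4 and Pias1 no neighbours in the order differed past the test, although Ptpn2 differed between its ends.

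Because longer transcripts collect more reads, genes were compared with each other only per kilobase of their principal transcript in GENCODE M21. Ptpn11 (65.8 to 88.6 CPM per kilobase over the 8 libraries), Socs5 (60.8 to 83.6) and Ptpn2 (44.9 to 60.6) were the most abundant. Socs6 (8.13 to 12.3), Socs3 (6.78 to 13.0) and Socs2 (5.37 to 10.3) followed. Socs4 (4.77 to 5.87), Pias1 (4.56 to 5.18), Cish (3.55 to 5.35) and Socs1 (1.15 to 5.73) were the least abundant, and the ranges of neighbours overlapped except those of Socs5 and Ptpn2 and of Ptpn2 and Socs6. On the same scale Ptpn2 averaged 53.0 by its principal transcript of 1568 bases and 27.4 by all its exons together, which span 3031 bases, and the ranks of Cish and Socs1 were exchanged by that choice.

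**Figure D3:**
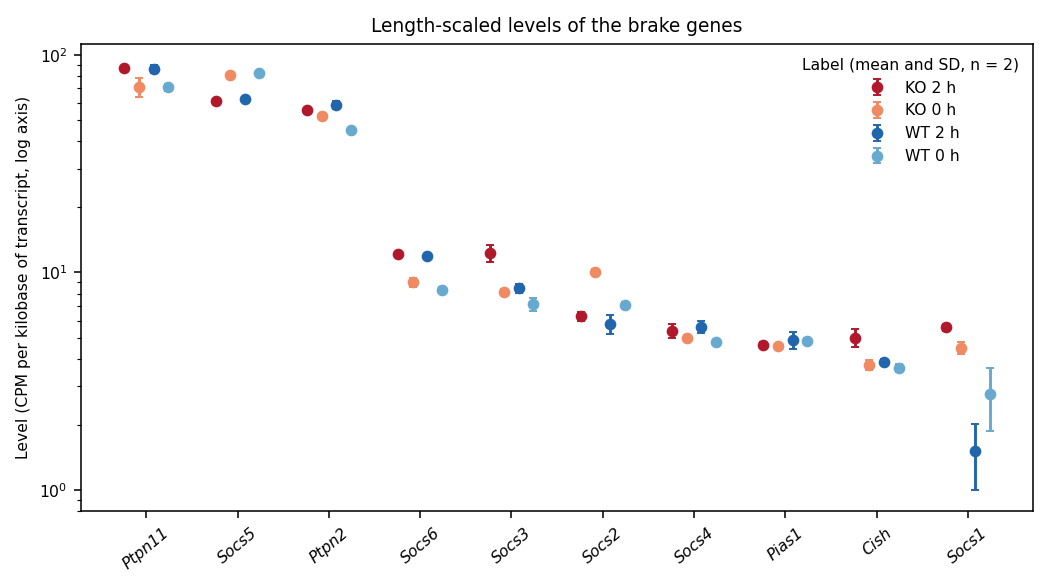
Length-scaled level of each brake gene (CPM per kilobase of the principal transcript, log axis), ordered by the mean over the 8 libraries, with the mean and SD of each labelled group (n = 2). Ptpn11, Socs5 and Ptpn2 lie at or above 44.9 in every library and the other 7 genes at or below 13.0.

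The rest of the pathway was described by lists chosen with earlier results of these data known. Among ligands, Il6, which signals through Il6st, stood at 8.94 ± 0.359 CPM in KO 2 h, 1.93 ± 0.773 in KO 0 h, 3.996 ± 0.149 in WT 2 h and 0.735 ± 0.136 in WT 0 h (SD, n = 2 each). It was higher in KO 2 h than in KO 0 h (log2 fold change 2.24, SE 0.27) and in WT 2 h than in WT 0 h (2.43, SE 0.32). Of 7 ligands tested, 3 were higher and 1 lower in KO 2 h than in KO 0 h, and 3 were higher and 3 lower in WT 2 h than in WT 0 h. Between genotype labels 2 were higher at 2 h, Il6 (1.16, SE 0.24) and Csf1 (0.44, SE 0.07), and 1 at 0 h, Il6 (1.36, SE 0.37). The genotype calls of Il6 were lost at 2 h without KO 2 h replicate 1 (1.11, edgeR adjusted p = 0.0828), WT 2 h replicate 1 (1.19, edgeR adjusted p = 0.107) or WT 2 h replicate 2 (1.12, edgeR adjusted p = 0.139). At 0 h the call of Il6 was lost without KO 0 h replicate 2 (0.89, edgeR adjusted p = 0.324) or any of the 4 WT libraries (edgeR adjusted p = 0.0582 to 0.287).

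Of 15 receptor chains tested, 2 were higher and 7 lower in KO 2 h than in KO 0 h, and 3 were higher and 8 lower in WT 2 h than in WT 0 h. Il13ra1 gave -3.82 (SE 0.16) and -4.16 (SE 0.18) in these comparisons, and Il4ra -2.32 (SE 0.09) and -2.34 (SE 0.09), both chains of the receptor for interleukin-13. Osmr, the oncostatin M receptor that pairs with Il6st, stood at 45.2 ± 8.21 CPM in KO 2 h, 147 ± 16.7 in KO 0 h, 30.5 ± 1.73 in WT 2 h and 65.3 ± 2.33 in WT 0 h. It was higher in KO 0 h than in WT 0 h (log2 fold change 1.17, SE 0.10, edgeR adjusted p = 3.06e-08), as Socs2 was. Its value at 2 h, 0.58 for KO over WT, was called but lost without KO 2 h replicate 1 (0.36, edgeR adjusted p = 0.316), WT 2 h replicate 1 (0.62, edgeR adjusted p = 0.0565) or WT 2 h replicate 2 (0.51, edgeR adjusted p = 0.194). Among the 4 Jak kinases, Tyk2, Jak3 and Jak2 were higher at 2 h than at 0 h under both genotype labels (Tyk2 0.89, SE 0.13, among KO and 0.56, SE 0.12, among WT). Jak2 was no longer called without KO 0 h replicate 1 among KO (0.26, edgeR adjusted p = 0.0553) and without WT 0 h replicate 2 among WT (0.29, edgeR adjusted p = 0.0572), and Jak3 without WT 2 h replicate 2 (0.35, edgeR adjusted p = 0.051). Between KO 2 h and WT 2 h edgeR called 0 of the 4 kinases, with 1, Jak2, at an unadjusted p below 0.05 and 0 called by DESeq2. Between KO 0 h and WT 0 h Jak2 alone was called higher (0.35, edgeR adjusted p = 0.0466), and DESeq2 called 0 of the 4; that call was lost without any of KO 0 h replicate 2 and the 4 WT libraries (edgeR adjusted p = 0.0681 to 0.556).

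Of 7 Stat factors and Irf9 tested, 3 were higher in KO 2 h than in WT 2 h and 4 in KO 0 h than in WT 0 h, with none lower. Stat2 stood at 332 ± 28.3 CPM in KO 2 h, 223 ± 9.78 in KO 0 h, 27.9 ± 0.775 in WT 2 h and 14.7 ± 0.00956 in WT 0 h (SD, n = 2 each). Its levels split by the label of genotype, as those of Socs1 did. Stat2 gave 3.57 (SE 0.09) for KO 2 h over WT 2 h and 3.93 (SE 0.10) for KO 0 h over WT 0 h. Stat3, which acts downstream of Il6st and induces Socs3, gave 0.45 (SE 0.08, edgeR adjusted p = 0.000921) for KO 0 h over WT 0 h, a call lost without WT 0 h replicate 2 (0.37, edgeR adjusted p = 0.103).

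Of 13 other brakes tested, 6 were higher and 2 lower in KO 2 h than in KO 0 h, and 6 were higher and 3 lower in WT 2 h than in WT 0 h. Pias4, a relative of Pias1, was higher in KO 2 h and in WT 2 h than at 0 h (1.24, SE 0.11, and 0.85, SE 0.10), and so was the phosphatase Ptpn6 (0.997, SE 0.25, and 1.51, SE 0.24), whose KO call was lost without KO 0 h replicate 1 (0.56, edgeR adjusted p = 0.0536). Usp18, which holds Jak1 off the receptor chain Ifnar2, was the single gene of this list past the test between KO 2 h and WT 2 h (5.16, SE 0.13). At 0 h 3 of the 13 were called between KO and WT, Usp18 higher (6.98, SE 0.19) and Sh2b3 (-0.43, SE 0.09, edgeR adjusted p = 0.00969) and Pias4 (-0.42, SE 0.11, edgeR adjusted p = 0.0407) lower. The call of Sh2b3 was lost without WT 0 h replicate 1 (edgeR adjusted p = 0.0756) or replicate 2 (0.0701), and that of Pias4 without KO 0 h replicate 2 or any WT library (0.0501 to 0.301). Usp18 was also the single gene of these lists with an interaction past the test, at -1.82 (SE 0.33, edgeR adjusted p = 0.0178), a call lost without any of the WT libraries (edgeR adjusted p = 0.0628 to 0.239). The level of Usp18 was 115 ± 12.2 CPM in KO 2 h, 50.4 ± 0.126 in KO 0 h, 3.21 ± 0.260 in WT 2 h and 0.392 ± 0.0677 in WT 0 h. Of 7 elongin-cullin partners of the SOCS box, edgeR called 0 between genotype labels, with 0 at 2 h and 4 at 0 h at an unadjusted p below 0.05 and 0 called by DESeq2 at either time. Between 2 h and 0 h 1 was higher and 3 lower among the KO labels, and 2 were higher and 2 lower among the WT labels, with Rbx1 at -0.87 (SE 0.10) and -0.81 (SE 0.09).

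Of 14 Stat3-linked genes and 4 Stat5-linked genes tested, edgeR and DESeq2 called 0 between genotype labels at either time. At an unadjusted p below 0.05 there were 1 Stat3-linked gene at 2 h and 6 at 0 h, and 0 and 1 Stat5-linked genes. Between 2 h and 0 h, 7 Stat3-linked genes were higher and 2 lower among the KO labels, and 6 and 4 among the WT labels. Pim1, a kinase induced by Stat factors, gave 2.55 (SE 0.15) and 2.26 (SE 0.14), and Timp1 gave -1.76 (SE 0.09) and -2.04 (SE 0.09). Of the Stat5-linked genes 3 were higher and 1, Igf1, lower under both genotype labels (Igf1 -1.79, SE 0.14, and -1.72, SE 0.14). Of 17 growth-factor signalling genes, 6 were higher and 5 lower in KO 2 h than in KO 0 h, and 6 were higher and 7 lower in WT 2 h than in WT 0 h, with Pdgfra at -1.81 (SE 0.08) and -1.48 (SE 0.08). Between genotype labels 0 of them were called at 2 h (0 at an unadjusted p below 0.05 and 0 in DESeq2), and 3 were lower in KO 0 h than in WT 0 h by edgeR, Irs2 (-0.43, SE 0.12), Spry4 (-0.42, SE 0.11) and Pdgfrb (-0.38, SE 0.09). All 3 of these calls were lost without WT 0 h replicate 1 (edgeR adjusted p = 0.119 for Irs2, 0.318 for Spry4 and 0.155 for Pdgfrb) or WT 0 h replicate 2 (0.25, 0.0895 and 0.0688). That of Irs2 was also lost without KO 0 h replicate 1 (0.0748), and that of Spry4 without KO 0 h replicate 2 (0.102), WT 2 h replicate 1 (0.0519) or WT 2 h replicate 2 (0.0523). All 19 interferon-induced genes tested were higher in KO 2 h than in WT 2 h and in KO 0 h than in WT 0 h. That list holds genes that other lists hold too, among them Usp18 and Stat2.

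**Figure D4:**
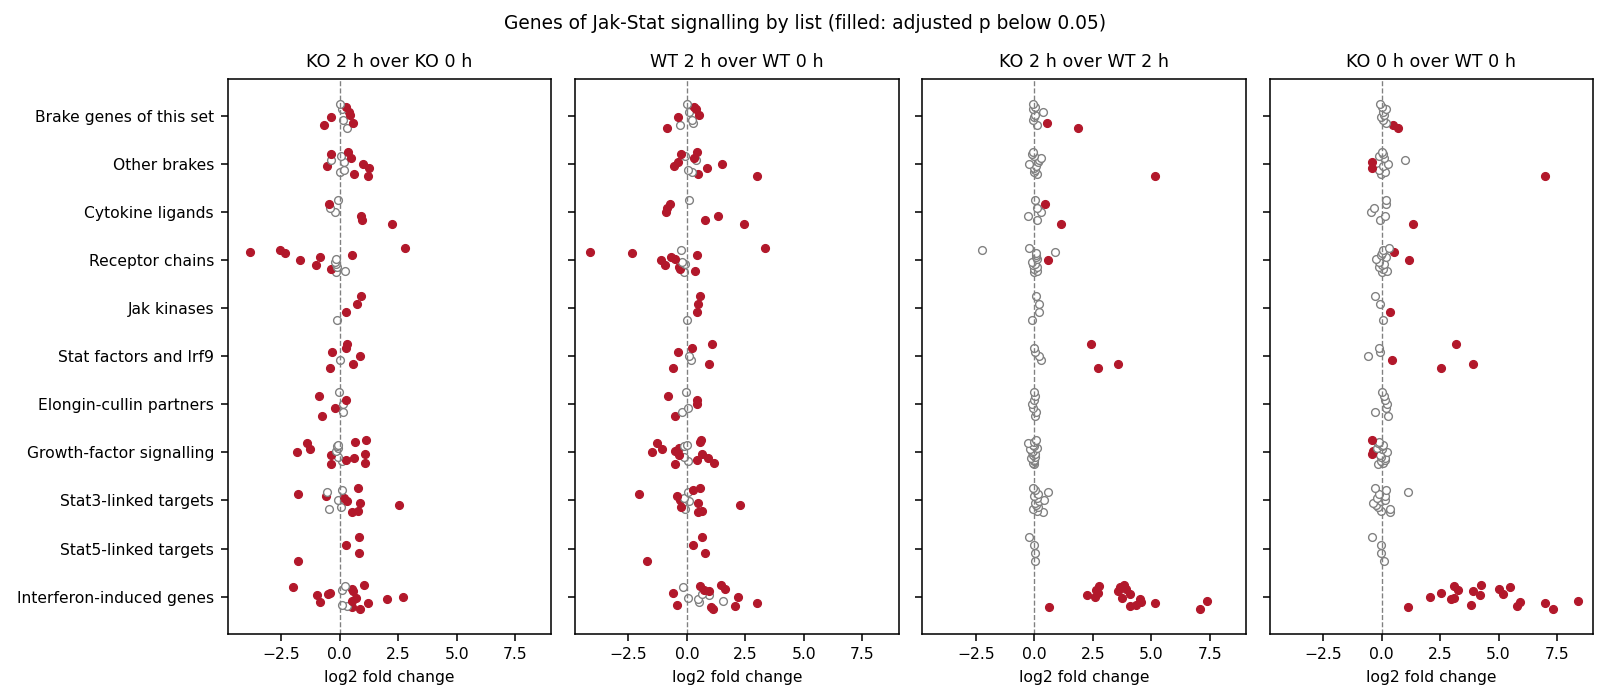
Log2 fold change of every tested gene of 11 lists (rows, a point per gene) in 4 comparisons between labelled groups (panels), filled where the edgeR adjusted p was below 0.05. Between KO 2 h and WT 2 h calls are seen in 5 pathway lists and for 2 of the 10 brake genes, and all 19 interferon-induced genes are filled and above 0.

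Patterns were also matched over the 8 libraries by Pearson's r of log2 CPM, among genes of at least 1 CPM on average. The libraries form 4 pairs, so such an r reflects the order of 4 groups and is given as a description. Closest to Socs1 were Nfatc2ip (r = 0.94), Apol9b (0.94) and Mov10 (0.94). Mov10, an RNA helicase, averaged 54.2 CPM in KO 2 h, 52.6 in KO 0 h, 26.7 in WT 2 h and 41.0 in WT 0 h. Socs3 had Cish among its closest 3 (r = 0.98), and Cish had Socs3 (0.98). Closest to Socs2 was Rab8b (0.98), to Socs5 Adamts2 (0.999), to Socs6 Fbxl4 (0.998), to Ptpn11 Rassf8 (0.99), to Ptpn2 Nemf (0.99), to Socs4 Fastkd1 (0.99) and to Pias1 Pard6a (0.89).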

How the data were processed

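For every library the authors deposited raw counts, whole numbers of reads for each gene symbol. The submitters' processing notes name STAR 2.5.2b, HTSeq, bcl2fastq 2.15 and mm9 without saying what each did. Annotation and strandedness of the counting are not known here, and without strand a gene and its antisense or overlapping neighbour share reads. The 4 summary lines (36.9 to 43.2% of reads) were left out. Counts were fitted in edgeR 4.0.16 (R 4.3.3) with filterByExpr (minimum count 10, minimum total 15), TMM scaling and 1 robust quasi-likelihood model with a coefficient per labelled group over all 8 libraries, with 4 residual degrees of freedom and a biological coefficient of variation of 6.74%. SE is the log2 fold change divided by the square root of the F statistic, and 95% intervals use the model's degrees of freedom. In each group the 2 replicates differed by more than counting noise (chi-square per degree of freedom 3.04 to 9.64). A count of 0 would allow up to 3 reads, or 0.138 to 0.210 CPM; such limits cover counting error only. Members and lists were chosen with earlier results of these data known. All 10 members are named, and of each list at most 4 called genes of at least 1 CPM in a group, by size of change. Promoters and gene positions are RefSeq's on GRCm38.p6, transcript lengths GENCODE M21's, and neither build is that of the counts. The fit was tested on simulated data. Alternatives were RLE scaling, library size alone, DESeq2 1.42.0, no filter, 1 CPM in 2 libraries, the compared groups alone, a replicate block and leaving out each library, where a lone library is assumed to vary like the others. Some genes of the pathway lists are counted there but not reported here.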

Additional observations from a re-analysis of the deposited data

Results flagged for a closer look

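The values of Socs1 lay in opposite directions under the 2 genotype labels: both libraries labelled KO 2 h (15.9 and 16.7 CPM) lay above both labelled KO 0 h (12.5 and 13.7 CPM), while both labelled WT 2 h (3.35 and 5.45 CPM) lay below both labelled WT 0 h (6.20 and 9.83 CPM). The difference between the changes, 1.18 on the log2 scale, did not pass over all genes (edgeR adjusted p = 0.127, and 0.0018 to 0.91 under the alternatives).

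Ptpn2 lay above in KO 0 h (83.0 and 80.6 CPM) against WT 0 h (70.5 and 71.2 CPM), and below in KO 2 h (88.3 and 87.1 CPM) against WT 2 h (95.0 and 89.3 CPM), with no overlap in either pair. The difference between the changes, -0.28, did not pass (edgeR adjusted p = 0.327). KO 2 h over WT 2 h gave -0.07 for Ptpn2, with a 95% interval of -0.24 to 0.09. Socs1 and Ptpn2 were flagged for opposite directions without overlap between groups of 2 libraries. The share of all genes that meet this rule was not computed.

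Usp18, an interferon-induced brake outside the 10 genes, passed the test of the difference between the changes, at -1.82 (edgeR adjusted p = 0.0178). This call was lost when any of the WT libraries was left out. It rests on few reads of Usp18 in WT 0 h, 9 in replicate 1 and 7 in replicate 2. Its level was 115 ± 12.2 CPM in KO 2 h against 50.4 ± 0.126 in KO 0 h, and 3.21 ± 0.260 in WT 2 h against 0.392 ± 0.0677 in WT 0 h (SD, n = 2 each).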

How the results depend on the processing

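Of 1040 values of the 10 genes under alternatives, 996 kept their direction and their side of the threshold, 22 were no longer called, 22 became called and none changed sign while called. For KO 0 h over WT 0 h, 1 of the 10 genes was called with RLE scaling, library size alone or DESeq2, against 2, and 0 to 2 with a library left out. That comparison called 809 genes with no filter, 322 with the replicate block and 174 to 1073 with a library left out (lowest without WT 0 h replicate 1, highest without KO 0 h replicate 1), against 502. For KO 2 h over WT 2 h, 1 to 2 of the 10 genes were called with a library left out. The interaction called 33 genes in DESeq2, 113 with no filter, where 1 of the 10 passed, and 6 to 91 with a library left out (lowest without WT 2 h replicate 1, highest without KO 0 h replicate 1), where 0 to 1 of the 10 passed, against 17. For values set by library size alone the cause is that choice of scale; for the others the cause was not tested. Replicate numbers are shared across groups, and the labels do not say what they stand for. Deviations of like-numbered libraries correlated at -0.053 to -0.005. Such values cannot show whether like-numbered libraries shared a culture or batch. With the replicate block the 10 genes had 6 calls for KO 2 h over KO 0 h and 5 for WT 2 h over WT 0 h. They had 2 for KO 2 h over WT 2 h, 2 for KO 0 h over WT 0 h and 0 for the interaction. Socs1 rested on 62 to 346 reads per library; the smallest change detectable at this depth was not measured.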
